A study of Mus musculus with 4 samples.

Results

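The BBSome genes Bbs1, Bbs2, Bbs4, Bbs5, Bbs7, Ttc8 (also Bbs8) and Bbs9 are described here together with Arl6 (also Bbs3) and the chaperonin-like genes Mkks (also Bbs6) and Bbs12. These 10 genes of 27591 gene names on the array were found by the gene name of each probe in the scanner files, or by the current symbol of the probe's accession. They had 16 of the 41174 gene probes, and 15 of these probes were measured: on each array, at least 1 of the genotypes gave a signal well above background. All 15 were in fact well above background in both genotypes on both arrays, so each of the 10 genes had at least 1 measured probe and no member was lost to the filter.

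The embryos came from the NotoGFP strain (Sv129/CD-1 hybrid background), in which GFP is inserted into Noto, whose homeobox protein acts in node and notochord. Homozygotes (Noto GFP/GFP) were compared with heterozygotes (Noto GFP/+) at the early headfold stage (~E7.75), so both groups carry at least 1 GFP allele and no embryo without it was measured. The node-bearing distal piece of 120 to 150 embryos was pooled for 1 RNA pool per genotype; the label fields differ on how large the piece was. The 4 samples are 2 arrays with both genotypes on each, the homozygote in Cy5 on array 1 and in Cy3 on array 2, labelled as technical replicates of the same pools. Ratios, homozygote over heterozygote, are in log2 units, given on each array and as the mean ± SD (n = 2 arrays). The SD is technical, no difference has a biological replicate check, and no significance test could be made.

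The BBSome is a coat-like complex of the primary cilium. It rides on intraflagellar transport trains and carries membrane proteins, among them signalling receptors, along and out of the cilium. The small GTPase Arl6 in its GTP-bound form recruits the complex to membranes, and Mkks, Bbs12 and Bbs10 help the cytosolic chaperonin to assemble it. Loss of these genes in humans causes Bardet-Biedl syndrome, a ciliopathy of the retina, kidney, limbs and body weight. At the mouse node, the left-right organiser, pit cells bear motile monocilia whose axonemes depend on the transcription factor FOXJ1, while BBSome genes serve motile and immotile cilia alike.

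The 7 probes printed below show part of what was hybridised. Of these 7, 5 have coordinates longer than the probe itself, so that they join separate genomic blocks. Those of Bbs5 and Bbs12 are contiguous and read open in 2 sense frames each. Probe 1 of Bbs5 is contiguous too, but it had no open sense frame and is not printed. Contiguous probes of the other genes are not printed, whatever their frames. An open frame in 60 bases does not show coding sequence, and which exon each probe covers could not be checked. The sequences are the designed 60-base probes of the scanner files, 5′ to 3′, all in lower case since no part is singled out. Positions are those in the files, on mouse build mm8.
Arl6, probe 1 (chr16:59563560-59565291, minus strand): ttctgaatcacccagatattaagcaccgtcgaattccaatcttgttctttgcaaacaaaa
Arl6, probe 2 (chr16:59561088-59563515, minus strand): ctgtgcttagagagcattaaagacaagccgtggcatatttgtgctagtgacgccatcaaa
Bbs4, probe 2 (chr9:59122182-59122852, minus strand): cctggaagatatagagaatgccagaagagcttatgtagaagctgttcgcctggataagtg
Bbs5, probe 2 (chr2:69463901-69463960, plus strand): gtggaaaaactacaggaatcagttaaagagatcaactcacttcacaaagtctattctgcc
Bbs7, probe 1 (chr3:36799255-36801786, minus strand): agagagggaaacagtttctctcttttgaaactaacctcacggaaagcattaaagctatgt
Bbs7, probe 2 (chr3:36767178-36767331, minus strand): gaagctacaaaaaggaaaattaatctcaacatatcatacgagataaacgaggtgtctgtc
Bbs12 (chr3:37512142-37512201, plus strand): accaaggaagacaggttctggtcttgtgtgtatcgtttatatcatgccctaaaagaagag
Where a gene has 2 probes, probe 1 is the brighter, and a gene takes the value of its brightest measured probe.

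None of the 10 genes differed between the genotypes by the size rule, which calls a gene when both arrays show a change of 1.5-fold or more (0.58 in log2 units) with the same sign. The rule called 2.39% of all 18607 measured genes, 2.33% lower and 0.0591% higher in the homozygote, so 0 of 10 is near the background and says little about the members by itself. At a lower limit of 0.32 in log2 units, 0 of 10 were called against 7.56% of all measured genes. It likewise called 0 of the 15 measured probes, against 2.08% of all measured probes. The gene means lay between -0.28 (Bbs5) and 0.18 (Bbs7), and 9 of 10 were within 0.2 of 0, against 71.9% of all measured genes. With each array centred on its median in place of loess, 5 of 10 were within 0.2 of 0, against 49.7% of all measured genes. That setting put the median of all measured genes at 0.12, and 8 of 10 lay within 0.2 of that median, against 61.9%. After loess 8 of 10 lay within 0.2 of the median of all measured genes, against 71.8%. With the scanner software's log ratio, 7 of 10 were within 0.2 of 0, against 65.7% of all measured genes. Within 0.2 of the median of all measured genes under that ratio lay 6 of 10, also against 65.7%. The count near 0 thus changed with the setting. Under the loess setting the members' median was 0.02, with medians of 0.02 on array 1 and 0.02 on array 2, against -0.02 for all measured genes. The pools are bulk tissue, in which fewer ciliated cells and less RNA per cell cannot be told apart, and the same holds for a ratio near 0.

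The signs of the ratios were mixed. Ratios had opposite signs on the 2 arrays for 4 of the 10 genes (Bbs1, Bbs4, Ttc8 and Bbs9), against 40.4% of all measured genes. They were below 0 on both arrays for 3 (Bbs5, Bbs12 and Mkks), against 34% of all, and above 0 on both for 3 (Bbs2, Bbs7 and Arl6), against 25.7%. The SD between arrays ranged from 0.04 for Bbs12 to 0.26 for Bbs5, with a median of 0.09 where that of all measured genes was 0.12. For 5 of the 10 the mean was smaller than its own SD, as for 50.1% of all measured genes.

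**Figure D1:**
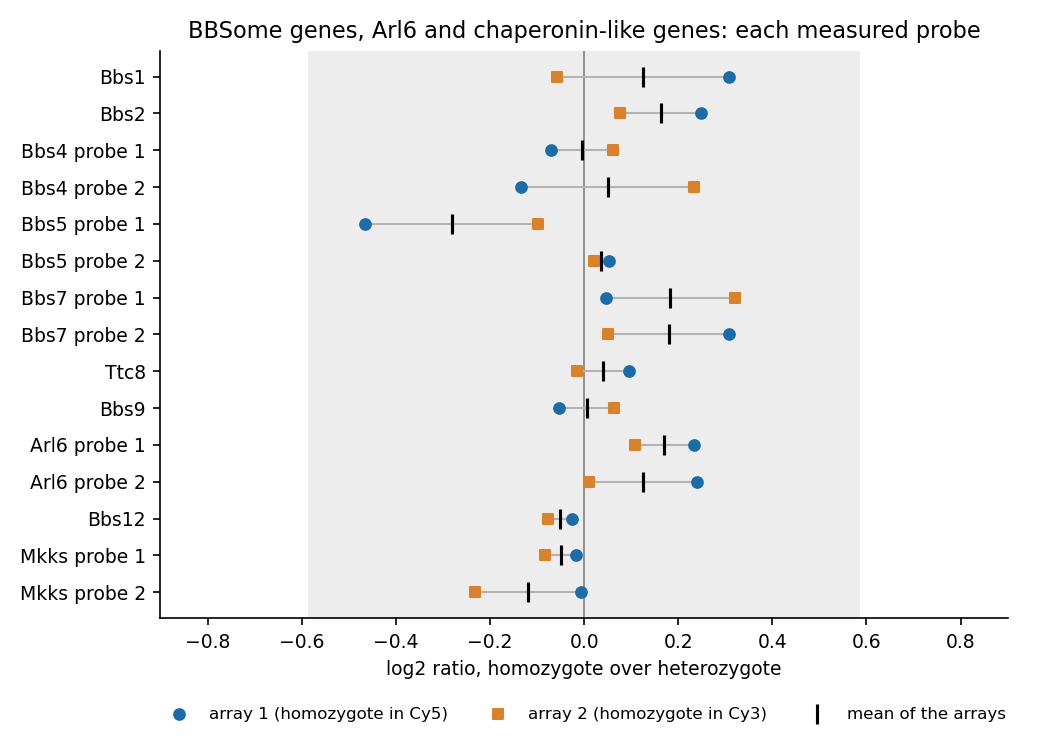
Log2 ratio of homozygote over heterozygote (x axis) for each of the 15 measured probes, on array 1 (circles), array 2 (squares) and as their mean (black ticks); the grey band spans 1.5-fold in each direction. Every point lies inside the band, and probe 1 of Bbs5 on array 1 (-0.47) lies farthest from 0.

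Bbs2, Bbs7 and Bbs9 form the core on which the rest of the complex is built. On array 1 the normalized log2 level of Bbs2 was 10.89 in the homozygote and 10.64 in the heterozygote, and on array 2 it was 11.08 and 11.00. The homozygote was thus the higher on both arrays, by 0.25 and 0.08, for a mean of 0.16 ± 0.12. The probe lies at chr8:96966120-96966179 on the minus strand.

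Bbs7 was read by 2 probes that lie far apart along the gene. On array 1, probe 1 read 8.68 in the homozygote and 8.64 in the heterozygote, and on array 2 it read 8.50 and 8.18. Probe 2 read 8.23 and 7.92 on array 1, and 8.81 and 8.76 on array 2. In all 4 of these pairs the homozygote was the higher, and the mean ratios were 0.18 ± 0.19 for probe 1 and 0.18 ± 0.18 for probe 2. The arrays disagreed on which probe held the difference, since probe 1 had its larger ratio on array 2 (0.32) and probe 2 on array 1 (0.31). Each mean was therefore about the size of its technical spread. Both probes were dim, with a mean log2 intensity of 8.48 for probe 1 and 8.47 for probe 2. Their means were 0.29 and 0.31 with the scanner software's log ratio, and 0.28 and 0.32 with the authors' value table. With median centring they were 0.17 and 0.09.

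Bbs9 is the remaining member of that core, and its level was alike in both pools. Its measured probe (chr9:22638554-22638613) read 12.43 in the homozygote and 12.48 in the heterozygote on array 1, and 12.49 and 12.42 on array 2. The ratio was 0.01 ± 0.08, and the genotypes changed order between arrays. A second Bbs9 probe, drawn from a RIKEN clone (chr9:22430286-22430345), was not well above background in any of the 4 samples. It was not counted as measured, and its ratio (-0.07 ± 0.08) is not read here.

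Bbs1 is the subunit that binds Arl6 at the membrane. Its 1 probe (chr19:4888819-4888878, minus strand) read 9.06 in the homozygote and 8.75 in the heterozygote on array 1. On array 2 it read 9.27 and 9.33. The ratio of 0.31 on array 1 fell to -0.06 once the dyes were exchanged, so the mean of 0.12 ± 0.26 did not exceed its spread.

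Bbs4 and Ttc8 are subunits built of tetratricopeptide repeats, and Bbs4 also ties the complex to pericentriolar material. Probe 1 of Bbs4 (chr9:59120239-59120298, minus strand) read 12.51 in the homozygote and 12.58 in the heterozygote on array 1, and 12.43 and 12.37 on array 2. Probe 2, printed above, read 9.32 and 9.45 on array 1, and 9.51 and 9.27 on array 2. On both probes the homozygote was the lower on array 1 and the higher on array 2, with means of -0.0047 ± 0.09 and 0.05 ± 0.26. In each case the genotype carrying Cy3 was the higher.

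Ttc8, read by 1 probe (chr12:99383972-99384031), had levels of 12.68 in the homozygote and 12.58 in the heterozygote on array 1. On array 2 they were 12.60 and 12.61. The mean ratio of 0.04 ± 0.08 was within the technical spread.

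Bbs5, whose product binds phosphoinositides, held the largest ratio of the 10, and its 2 probes differed. Probe 1 (chr2:69468094-69468153) read 13.35 in the homozygote and 13.81 in the heterozygote on array 1, and 13.98 and 14.08 on array 2. Probe 2, which lies upstream of it in the gene, read 12.37 and 12.32 on array 1, and 12.29 and 12.27 on array 2. Probe 1 was lower in the homozygote on both arrays, by a mean of -0.28 ± 0.26 (a fold of 0.823), most of it from array 1 (-0.47 against -0.10). Probe 2 gave 0.04 ± 0.02, with both genotypes alike. The probes were 0.32 apart, where those of Arl6, Bbs4, Bbs7 and Mkks were 0.05, 0.05, 0.0033 and 0.07 apart. The ratio of Bbs5 thus rests on 1 probe. With both probes averaged it read -0.12, still the lowest of the 10 under that rule. Which transcript form each probe reads was not examined.

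**Figure D2:**
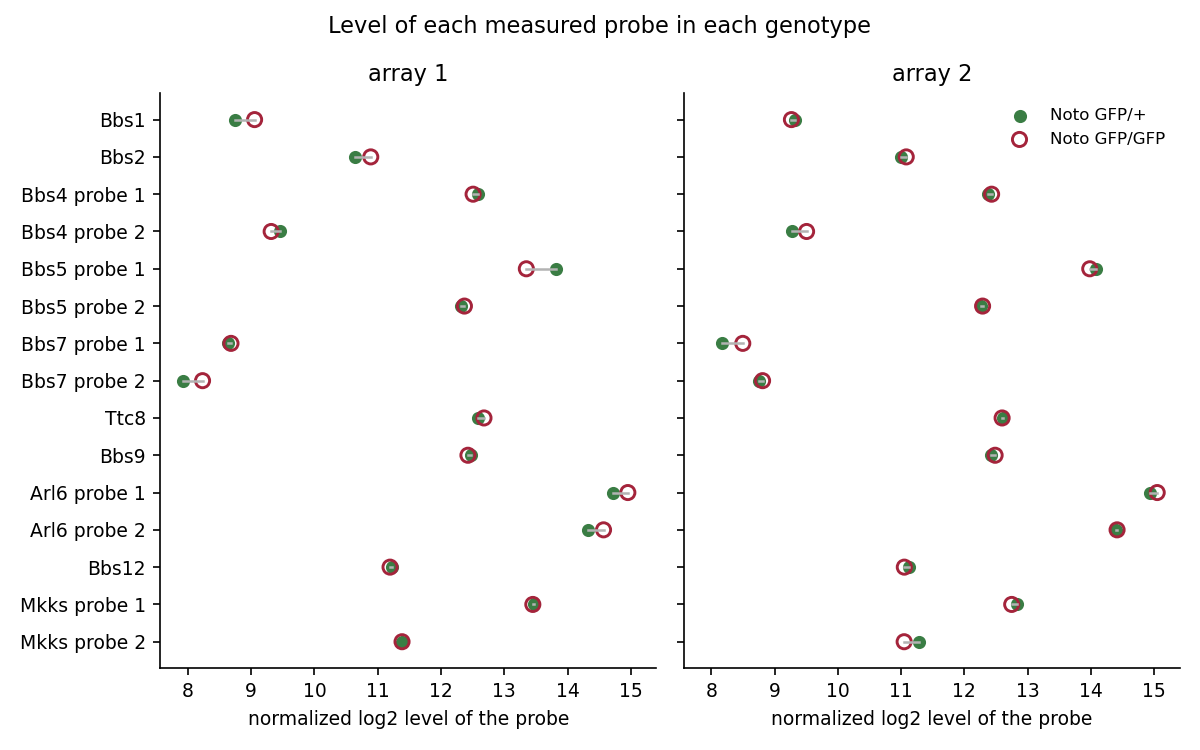
Normalized log2 level (x axis) of each measured probe in the heterozygote (filled) and the homozygote (open) on array 1 (left) and array 2 (right); levels may be compared within a row only. The circles of a row overlap or nearly touch for most probes, and the widest gap is that of Bbs5 probe 1 on array 1 (13.35 against 13.81).

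Arl6, the GTPase that brings the BBSome to membranes, had ratios above 0 on both probes and both arrays, none of them past the size rule. Probe 1 read 14.95 in the homozygote and 14.72 in the heterozygote on array 1, and 15.05 and 14.94 on array 2. Probe 2 read 14.57 and 14.33 on array 1, and 14.41 and 14.40 on array 2. Their mean ratios were 0.17 ± 0.09 (a fold of 1.13) and 0.12 ± 0.16. On array 2 the ratio of probe 2 was 0.01, so the agreement of all 4 signs rests on 1 value close to 0.

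The chaperonin-like genes had mean ratios just below 0 after loess and above 0 with median centring in its place. Bbs12 read 11.20 in the homozygote and 11.22 in the heterozygote on array 1, and 11.05 and 11.13 on array 2, for a ratio of -0.05 ± 0.04. Probe 1 of Mkks (chr2:136577046-136577105, minus strand) read 13.45 and 13.47 on array 1, and 12.75 and 12.83 on array 2. Probe 2 of Mkks (chr2:136565652-136565711, minus strand) read 11.39 and 11.39 on array 1, and 11.05 and 11.28 on array 2. For Mkks the mean ratios were -0.05 ± 0.05 and -0.12 ± 0.16. With median centring Bbs12 read 0.12 and the Mkks probes 0.18 and 0.06, where the median of all measured genes was 0.12. After loess the homozygote was the lower in each of these pairs, but by no more than 0.08 on array 2 for Bbs12 and for probe 1 of Mkks.

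Both the BBSome partners and the genes of the same disease also stayed short of the size rule. The list, drawn up with earlier results of these data known, named 35 further genes, of which 30 were measured, with a median of -0.01. Of these 30, 0 were called in either direction, against 2.39% of all measured genes, so this count says little by itself. Ratios were below 0 on both arrays for 7, against 34% of all measured genes, and above 0 on both for 8, against 25.7%. Bbip1, the remaining BBSome subunit, read 0.14 ± 0.19, and Lztfl1, which holds the complex out of the cilium, read -0.13 ± 0.33.

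Of the assembly chaperonin genes, 9 of 9 were measured, with a median of 0.01. Bbs10, the partner of Mkks and Bbs12, read -0.03 ± 0.18. The chaperonin subunits Cct3 (0.32 ± 0.44) and Cct6a (0.18 ± 0.16) lay farthest from 0. The Cct3 ratio came from array 2 (0.64), with 0.01 on array 1.

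Genes of ciliary entry and exit (7 of 7 measured) had a median of -0.02. The transport subunit Ift27, which links the BBSome and Arl6 to exit from the cilium, read -0.30 ± 0.39, with -0.57 on array 1 and -0.02 on array 2. The vesicle GTPase Rab8a read 0.18 ± 0.36. Other Bardet-Biedl syndrome genes and partners (9 of 11 measured) had a median of -0.03, led by the transport subunit Ift74 (-0.16 ± 0.04) and the pericentriolar gene Pcm1 (0.14 ± 0.11). Of 6 genes for membrane proteins that cilia carry, 3 were measured. These included the receptors Mchr1 (0.25 ± 0.33) and Gpr161 (-0.19 ± 0.09).

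**Figure D3:**
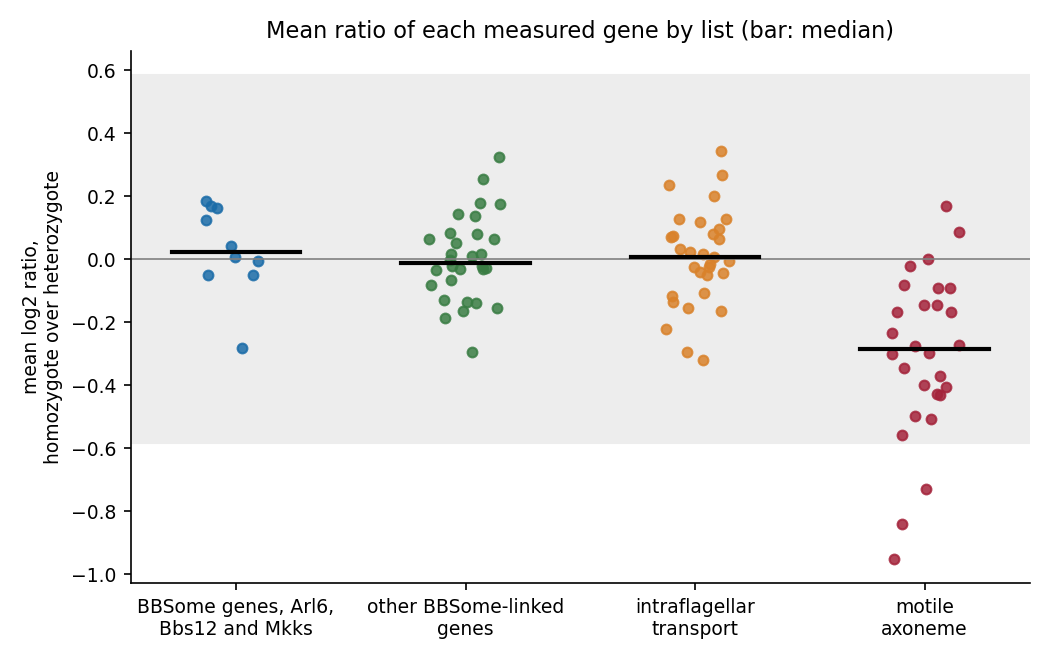
Mean log2 ratio of homozygote over heterozygote (y axis) of each measured gene (points) in 4 lists, with the list's median (black bar) and the span of 1.5-fold in each direction (grey band). The first 3 lists have medians of 0.02, -0.01 and 0.01 and no point outside the band, while the motile axoneme list has a median of -0.29 and 3 points below it.

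Intraflagellar transport genes, whose trains the BBSome rides, had a median of 0.01 over 31 measured of 33. Of these 31, 0 were called, against 2.39% of all measured genes. Their means ran from -0.32 to 0.34, and 4 measured genes also belong to the partner list above. The list drawn up as motile axoneme genes had a median of -0.29 over 28 measured of 34. The rule called 3 lower (Dynlrb2, Meig1 and Cfap45) and 0 higher, against 2.33% and 0.0591% of all measured genes. Of these 28, 22 had ratios below 0 on both arrays, against 34% of all measured genes, and 14 lay below the lowest of the 10 BBSome-linked genes. That lowest value is probe 1 of Bbs5 (-0.28), whose probe 2 read 0.04. With the probes of each gene averaged, the lowest of the 10 was -0.12. The share of all measured genes below -0.28 was not counted, so the 14 cannot be read as a separation of the lists. The lists were not matched for signal, and the called genes differed in mean log2 intensity, with 8.29 for Meig1, 11.8 for Cfap45 and 12.8 for Dynlrb2. Dynlrb2, a dynein light chain gene, read -0.95 ± 0.04, Meig1 -0.84 ± 0.13 and Cfap45, an axonemal gene, -0.73 ± 0.12. Whether the products of Dynlrb2 and Meig1 are parts of the motile axoneme was not checked. The count of 0 called among the transport genes depends on Dynlrb2 being placed in the axoneme list and not with them. With median centring, 1 of the 3 (Meig1, -0.91) was called, Dynlrb2 read -0.73 and Cfap45 -0.53, both short of the rule on array 1, and the list's median was -0.17 against 0.12 for all measured genes. This list too was written with these results known, so its shift is a description, and the difference between the lists was not tested.

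**Figure D4:**
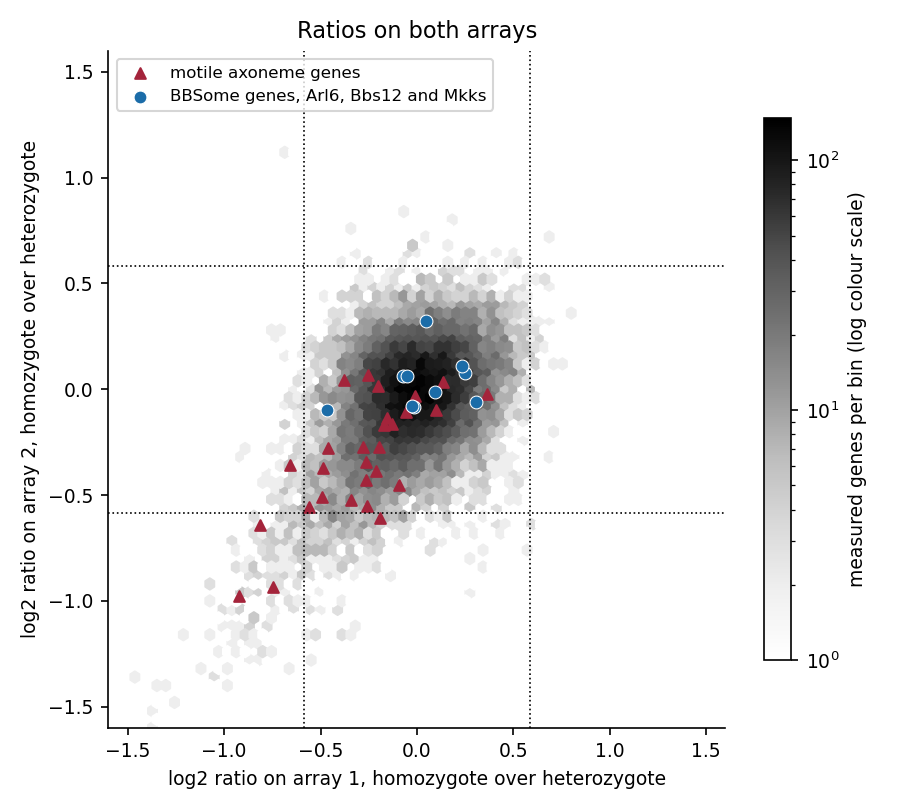
Log2 ratio on array 1 (x axis) against array 2 (y axis) for all measured genes (grey bins, log colour scale), the 10 BBSome-linked genes (circles) and the 28 measured genes of the motile axoneme list (triangles). Dotted lines mark 1.5-fold, and 40 genes lie outside the plotted range of 1.6. The circles sit within the dense centre, and 3 triangles lie in the lower left field.

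Foxj1 read -0.52 ± 0.09 (-0.59 on array 1 and -0.46 on array 2) and fell short of the size rule because of array 2. Rfx3, a main regulator of genes shared by all cilia, read 0.02 ± 0.01. Rfx7, named after its value was seen, read -0.50 ± 0.14 (-0.60 on array 1 and -0.40 on array 2), past the lower limit of 0.32 on both arrays but short of the size rule. Of the 7 Foxj1 and Rfx genes listed, all were measured and 0 were called, against 2.39% of all measured genes.

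RFX factors bind the X-box, a near-palindrome found upstream of many ciliary genes, so the promoters of the 10 genes were searched. The windows run from 250 bases before to 50 after each start in RefSeq on GRCm38.p6, and all 10 genes matched by symbol. The X-box outline (the arms GTNNCC and GGNNAC with 2 bases between them), which reads the same on both strands and was chosen after the promoters had been seen, occurred in 3 of 10 (Bbs1, Bbs4 and Bbs7), against 2.16% of all 27025 genes. These 3 stretches of 30 bases are shown because they carry that outline, in capitals, on the strand of the gene.
Bbs1 (chr19:4906605-4906634, minus strand): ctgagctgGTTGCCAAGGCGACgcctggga
Bbs4 (chr9:59353464-59353493, minus strand): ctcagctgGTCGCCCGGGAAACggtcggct
Bbs7 (chr3:36613489-36613518, minus strand): gcgccccgGTTGCCTTGGAAACcggccagc
The match began at base 2 and base 24 after the start in Bbs1 and Bbs4, and at base -121, before the start, in Bbs7. The left arm GTTGCC alone, searched on both strands, occurred in 3 of 10 (Bbs1, Bbs5 and Bbs7), against 14.1% of all genes. In Bbs1 and Bbs7 it is the left part of the outline above. A forkhead core, spelled TGTTTAC in its first searched form, TGTTTGC in another and TGTTGTC in the last, on both strands, occurred in 1 of 10, Bbs9, against 12.6% of all genes. The 3 genes with the outline had ratios of 0.12 ± 0.26, -0.0047 ± 0.09 and 0.18 ± 0.19. A match is a description of these letters, and binding was not measured.

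Signal and tissue markers were checked on both arrays. Neither array held a saturated gene spot (0), and across dyes and arrays the median foreground intensity of gene spots was 305 to 722 over a background of 45.5 to 67. For control RNAs added in known ratios, the slope of observed on stated log ratio was 0.809 on array 1 and 0.705 on array 2, so the ratios of these controls were compressed, and the number of arrays limits the precision. All 7 node and notochord markers were measured and 0 were called, against 2.39% of all measured genes. The means of these markers were above 0 for T (0.33 ± 0.02), Foxa2 (0.10 ± 0.29) and Chrd (0.08 ± 0.03). They were below 0 for Foxj1 (-0.52 ± 0.09), Shh (-0.44 ± 0.07), Dand5 (-0.09 ± 0.05) and Nodal (-0.03 ± 0.05). Also measured were 5 of 5 blood, 5 of 5 heart, 5 of 5 visceral endoderm and 3 of 5 decidua and trophoblast markers. Of the markers of other tissues, Hbb-bt (-1.36 ± 0.07) and Hba-a1 (-1.05 ± 0.18) were lower and the decidual hormone gene Prl8a2 (1.11 ± 0.03) was higher by the size rule. The other measured markers of these tissues were not called and lay on both sides of 0, from -0.61 ± 0.03 (Nppa, heart) to 0.48 ± 0.06 (Myh6, heart), with Gata1 (blood) at 0.21 ± 0.11 and Plet1 (trophoblast) at -0.53 ± 0.18. Within the blood, heart and trophoblast lists the ratios thus ran in both directions. Their part in the ratios of the BBSome genes was not tested. Since Noto was not analysed here, the genotype labels were not checked against the targeted gene.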

How the data were processed

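Per the file headers, the authors read the 2-colour arrays by Agilent Feature Extraction 9.5.3.1 (a version that the submitters' processing notes also give), which wrote foreground and background intensity per spot and dye, flags (unit other), and a log10 ratio (red over green). A value table of linear intensity per sample, floored at 15, was deposited too; its scaling is unstated. The paired scanner files of an array were identical and each array was read once.

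With limma 3.58.1 in R 4.3.3, intensities were corrected by normexp (offset 50) and normalized by loess within each array, control spots at weight 0 and outlier spots (179 and 165) left out; array 2 was turned. Levels add Aquantile normalization between arrays. The steps were tested on simulated data. Probe accessions or names matched RefSeq (assembly GRCm38.p6) for 33116 of 41174 probes. Python 3.11.15, numpy 2.4.6, pandas 2.3.3 and matplotlib 3.10.9 made tables and plots. All 10 genes are named with every probe; of each partner list, the 2 measured genes farthest from 0 and any called, and of the comparison lists, called genes only; Bbs10 was added after its value was seen. Members and lists were chosen with earlier results of these data known. Alternatives were other background correction, median centring, the software's log ratio, the value table, the mean of probes, other dim-probe filters, single arrays and a lower fold.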

Additional observations from a re-analysis of the deposited data

How the results depend on the processing

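No paired analysis was possible because no test is made: both genotypes lie on each array and enter as 1 ratio, and the shared replicate numbers name 2 arrays of 1 pool per genotype. The count of members called was 0 under every alternative run. This held at the lower limit of 0.32 (log2) when required on both arrays, and at 1.5-fold on each array alone. On array 1 alone Bbs5 read -0.47, which is past the lower limit. Under median centring the median of all measured genes moved from -0.02 to 0.12. That of the members read 0.19, of the partner list 0.18, of intraflagellar transport 0.21 and of the motile axoneme -0.17 with 1 gene called, so relative to all genes they stood at 0.07, 0.06, 0.09 and -0.29. The members' median was 0.032 with the mean of probes, and 0.015 to 0.023 on single arrays. The partner list's was 0.038 with the software's log ratio and from -0.014 to 0.050 on single arrays, where 0 to 1 genes passed 1.5-fold. Of 15 member probes, 10 moved by more than their SD with median centring and 0 with no background correction, the software's log ratio or the value table, and 4, 0, 1 and 2 changed sign. The cause of these shifts was not tested. The values rest on 1 pool per genotype and 1 pair of arrays.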
